A study of Mus musculus with 18 samples.

Results

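The genes described here are 10 of the 38887 genes measured in bone marrow-derived macrophages (BMMs). They encode the surface ligands and receptors through which a macrophage talks to a T cell, namely Cd40, Cd80, Cd86, Icosl, Cd83, Cd274, Pdcd1lg2, Lgals9, Havcr2 and Slamf7. They were chosen by name for that role, with earlier results of these data known. All 10 were found by symbol and Ensembl identifier in every library.

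A naive T cell needs a signal through its antigen receptor and a second, costimulatory signal from the presenting cell to become fully active. CD80 and CD86 give this signal through CD28, ICOS ligand gives it through ICOS, and CD40 is the receptor through which a T cell carrying CD40 ligand activates the macrophage in return. PD-L1 (Cd274) and PD-L2 (Pdcd1lg2) bind PD-1 and restrain the T cell, and CD80 and CD86 also bind the inhibitory receptor CTLA-4. Lipopolysaccharide (LPS), a component of the outer membrane of Gram-negative bacteria, is sensed by Toll-like receptor 4 and is a classical inducer of costimulatory molecules on macrophages.

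The study asked how the glucocorticoid-induced leucine zipper (GILZ, gene Tsc22d3) shapes macrophage gene expression. Bone marrow of female C57BL/6J mice, 10 to 23 weeks of age, was differentiated for 6 days with 50 ng/ml M-CSF, and the BMMs were left untreated or were treated with 100 ng/ml LPS for 4 h. All 3 genotypes carried Lyz2-Cre, a Cre recombinase expressed from the Lyz2 promoter in myeloid cells. Mice with Lyz2-Cre alone served as wild type (WT). GILZ KO mice also carried loxP sites around exon 6 of Tsc22d3 on both alleles. In GILZ TG mice a Gilz-1 cDNA behind a loxP-flanked stop cassette was driven by the ROSA26 promoter, so its expression follows neither the normal promoter nor the normal regulation of the gene. Each of the 6 groups of genotype and treatment held 3 libraries from separate preparations of cells. Whether the untreated and LPS-treated libraries of a genotype with the same number share a preparation is not given in the sources used here.

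The libraries held between 14583055 and 38557029 reads assigned to genes. Tsc22d3 was at 14.9 to 18.8 TPM (a transcript level corrected for transcript length and for the total of the library) in untreated WT, at 1.89 to 2.81 in GILZ KO and at 152 to 160 in GILZ TG, in the order the labels give. After LPS its levels were 4.56 to 5.81, 2.50 to 3.28 and 127 to 141 TPM. Lyz2, the gene that drives Cre, was at 6766 to 15401 TPM in the WT libraries and at 17.2 to 70.3 in those of GILZ KO and GILZ TG, so WT stood apart from both other genotypes at this locus too. The T-cell receptor genes Cd3d and Cd3e and the co-receptor Cd8a were at 0 in all libraries, and the 8 dendritic-cell markers were each under 1 TPM. The summed level of all 10 T-cell markers was 0.93 to 1.93 TPM without treatment and 4.94 to 9.95 after LPS, most of it from Cd247 and Lck. The summed level of 8 stromal markers was 119 to 173 TPM in GILZ TG replicates 1 and 2, with or without LPS, and at most 31.8 in the other 14 libraries. The sum of 8 neutrophil-lineage markers was 188 to 517 TPM in the same 4 libraries, 69.4 and 84.3 in GILZ TG replicate 3, and at most 77.7 in WT and GILZ KO. The sum of 8 B-cell markers was 79.7 to 153 TPM in those 4 libraries and at most 35.9 in the others. Members at an unadjusted p below 0.05, and listed genes past the threshold, between GILZ TG and another genotype of the same treatment are therefore also given without these libraries, and the single GILZ TG library then left is assumed to vary as the other groups do.

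LPS raised 8 of the members in each of the 3 genotypes and lowered Havcr2. Cd40 and Cd274 rose most, Cd83, Slamf7 and Cd86 followed, Icosl and Lgals9 rose less, and Cd80 rose least. The remaining member, Pdcd1lg2, had too few reads to be tested. Of the 9 members tested, 8 were significantly higher and 1 was significantly lower in WT, in GILZ KO and in GILZ TG alike. Tests are edgeR's quasi-likelihood test on read counts with a Benjamini-Hochberg adjusted p below 0.05, adjusted over all 13169 genes tested. Of all genes tested, 68.6% passed in WT, 68.5% in GILZ KO and 68.7% in GILZ TG. By direction, 33.5% were higher and 35.1% were lower in WT, 33.2% and 35.4% in GILZ KO, and 33.6% and 35.1% in GILZ TG. At least a 2-fold rise was called for 7 members in WT and for 8 each in GILZ KO and GILZ TG, against 15.4%, 14.6% and 15% of all genes. At least a 2-fold fall was called for 0, 1 and 0 members, the 1 being Havcr2 in GILZ KO, against 14.3%, 15% and 14% of all genes. The untreated and LPS-treated libraries did not overlap for 8 of the tested members in WT and for 9 each in GILZ KO and GILZ TG, compared with 81.2%, 83.7% and 80.9% of all genes. The median log2 fold change of the members was 4.04 in WT, 3.70 in GILZ KO and 4.53 in GILZ TG, and that of all genes lay between -0.023 and -0.021. In these bulk samples, fewer cells with a transcript and less of it per cell cannot be told apart.

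**Figure D1:**
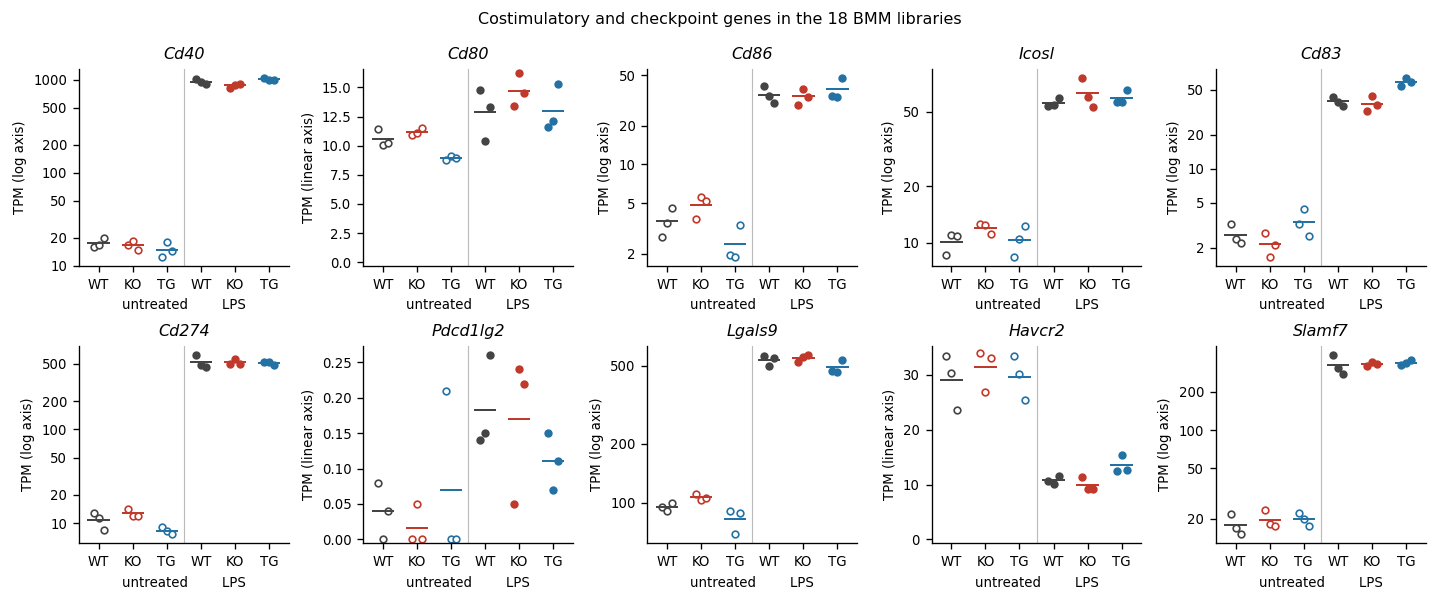
Level of the 10 members in TPM in each of the 18 libraries (points, open for untreated and filled for LPS) with the group mean (line), by genotype (WT, GILZ KO, GILZ TG). Axes are logarithmic except for Cd80, Pdcd1lg2 and Havcr2, which have linear axes. The untreated and LPS-treated libraries do not overlap for 8 members, while Cd80 and Pdcd1lg2 overlap.

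These fold changes depend on how libraries of different composition are scaled. The read counts were scaled by TMM, which centres the bulk of the genes, whereas TPM fixes the total. On the log2(TPM + 1) scale the median of all genes tested was -0.508 in WT, -0.517 in GILZ KO and -0.511 in GILZ TG, and 19.8%, 18.8% and 19.3% of the significant genes were higher with limma, compared with 48.9%, 48.4% and 48.9% on the TMM scale. All 9 members kept their direction on both scales, and all except Cd80 in WT kept their call. The level of each member is given in TPM below, and the fold change from the counts after TMM scaling, so the TPM ratio is smaller for genes that rose and the fall of Havcr2 is larger.

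Cd40 (ENSMUSG00000017652, chromosome 2, 165055627 to 165072948, plus strand, all positions in GRCm38) encodes the receptor for CD40 ligand on activated T cells. Its untreated level was 15.8, 16.6 and 19.7 TPM in the 3 WT libraries, 16.7, 18.3 and 14.7 in GILZ KO, and 12.4, 18.1 and 14.3 in GILZ TG. After LPS it was 1017, 938 and 899 TPM in WT, 820, 881 and 903 in GILZ KO, and 1047, 988 and 997 in GILZ TG. Every LPS-treated library was far above every untreated library, and Cd40 went from 6.51% to 10.6% of the summed TPM of the members without treatment to 35% to 41.4% after LPS. The fold change was 82.2 in WT (95% confidence interval 66.9 to 101), 85.0 in GILZ KO and 110 in GILZ TG, corresponding to log2 values of 6.36 ± 0.14 (SE), 6.41 ± 0.14 and 6.79 ± 0.14, with edgeR adjusted p-values of 2.59e-16, 4.37e-16 and 1.86e-16. The ratio of mean TPM was 54.7, 52.4 and 67.7.

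Cd80 and Cd86, the B7 ligands of CD28 and CTLA-4, behaved differently although both lie on chromosome 16 (Cd80 at 38455561 to 38496335, plus strand, and Cd86 at 36603869 to 36666081, minus strand). Cd86 was at 2.70, 3.46 and 4.61 TPM in untreated WT, at 3.74, 5.61 and 5.20 in GILZ KO, and at 1.95, 1.89 and 3.39 in GILZ TG. After LPS it reached 40.8, 34.6 and 30.0 TPM in WT, 29.3, 39.1 and 33.9 in GILZ KO, and 34.4, 33.7 and 47.6 in GILZ TG. All LPS-treated libraries were above all untreated ones, whereas the 3 genotypes overlapped after LPS. The log2 fold change was 4.04 ± 0.24 in WT, 3.70 ± 0.24 in GILZ KO and 4.53 ± 0.25 in GILZ TG, with edgeR adjusted p-values of 8.71e-11, 2.94e-10 and 3.18e-11.

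Cd80, in contrast, was at 11.4, 10.1 and 10.2 TPM in untreated WT, at 10.9, 11.1 and 11.5 in GILZ KO, and at 8.75, 9.11 and 8.97 in GILZ TG. After LPS the values were 14.8, 10.4 and 13.3 TPM in WT, 13.4, 16.2 and 14.5 in GILZ KO, and 11.6, 12.2 and 15.3 in GILZ TG. The WT groups overlapped, while in GILZ KO and GILZ TG every LPS-treated library was higher. Without treatment Cd80 was thus the more abundant of the B7 ligands in every library, and after LPS Cd86 was. On the TMM scale Cd80 rose 1.88-fold in WT (log2 0.91 ± 0.13, edgeR adjusted p = 8.35e-06), 2.04-fold in GILZ KO and 2.25-fold in GILZ TG. On the TPM scale the log2 difference in WT was 0.25 with a limma adjusted p of 0.0615 and did not pass, compared with 0.36 (adjusted p = 0.01) in GILZ KO and 0.49 (adjusted p = 0.00126) in GILZ TG.

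Icosl, the ligand of the costimulatory receptor ICOS (chromosome 10, 78069302 to 78083913, plus strand), was at 8.61, 11.0 and 10.8 TPM in untreated WT and between 8.39 and 12.7 in the other untreated libraries. After LPS it was at 53.7, 54.4 and 58.9 TPM in WT, at 75.6, 59.4 and 53.1 in GILZ KO, and at 55.9, 55.9 and 65.0 in GILZ TG. The treatments did not overlap. The genotypes overlapped after LPS, and without treatment all GILZ KO libraries were just above those of WT. The log2 fold change was 3.08 ± 0.15, 3.02 ± 0.15 and 3.13 ± 0.15 in WT, GILZ KO and GILZ TG, and the largest of the edgeR adjusted p-values was 8.04e-12.

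Cd83, a marker of activated antigen-presenting cells that stabilizes MHC class II and CD86 at the surface (chromosome 13, 43784775 to 43803132, plus strand), started low. It was at 3.21, 2.39 and 2.19 TPM in untreated WT, at 2.67, 1.65 and 2.10 in GILZ KO, and at 3.25, 4.39 and 2.53 in GILZ TG. After LPS it was at 43.2, 38.7 and 36.1 TPM in WT, at 32.1, 43.9 and 36.7 in GILZ KO, and at 54.3, 63.8 and 58.2 in GILZ TG. The 3 LPS-treated GILZ TG libraries were above the 6 others of that treatment, and the untreated genotypes overlapped. LPS raised Cd83 23.4-fold in WT, 26.9-fold in GILZ KO and 26.5-fold in GILZ TG, or by log2 4.55 ± 0.18, 4.75 ± 0.19 and 4.73 ± 0.18, with edgeR adjusted p-values of at most 6.77e-13.

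Cd274 encodes PD-L1 (chromosome 19, 29367455 to 29388095, plus strand). It was at 12.9, 11.5 and 8.39 TPM in untreated WT, at 14.3, 12.0 and 12.0 in GILZ KO, and at 9.09, 8.22 and 7.63 in GILZ TG. After LPS it reached 618, 483 and 456 TPM in WT, 500, 566 and 499 in GILZ KO, and 516, 515 and 484 in GILZ TG. The untreated GILZ TG libraries were all below those of GILZ KO and overlapped with WT, and after LPS the 3 genotypes overlapped. The log2 fold change with LPS was 6.20 ± 0.15 in WT, 5.98 ± 0.15 in GILZ KO and 6.56 ± 0.16 in GILZ TG, which is 73.7-fold, 63.3-fold and 94.3-fold, with edgeR adjusted p-values of at most 1.74e-15. In TPM the ratio of the means was 47.5, 40.8 and 60.8.

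Pdcd1lg2, the gene of the second PD-1 ligand PD-L2 and the neighbour of Cd274 on chromosome 19 (29410919 to 29471161, plus strand), had almost no reads. It had 0 reads in 5 of the 9 untreated libraries and at most 4 in the others, and 1 to 6 reads in each LPS-treated library. Its level was therefore at most 0.21 TPM without treatment and 0.05 to 0.26 TPM after LPS, against at least 456 TPM for Cd274. Pdcd1lg2 did not pass the filter on low counts in any of the comparisons reported here, and its values without that filter are not given. A difference was therefore not tested with that filter. The 3 LPS-treated WT libraries, at 0.14 to 0.26 TPM, were above the untreated ones, at 0 to 0.08.

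Lgals9 encodes galectin-9, a soluble and surface-bound lectin that binds TIM-3 on T cells (chromosome 11, 78962974 to 78984946, minus strand). Without treatment it was the most abundant of the members in every library, with 40.3% to 51.3% of their summed TPM. Its levels were 94.9, 91.1 and 99.7 TPM in untreated WT, 112, 104 and 106 in GILZ KO, and 90.7, 69.2 and 89.0 in GILZ TG. After LPS they were 565, 497 and 546 TPM in WT, 521, 558 and 568 in GILZ KO, and 473, 464 and 535 in GILZ TG. The untreated genotypes did not overlap and were ordered GILZ KO, WT and GILZ TG, and all 3 overlapped after LPS. The log2 fold change with LPS was 3.12 ± 0.11 in WT, 3.00 ± 0.11 in GILZ KO and 3.20 ± 0.11 in GILZ TG, with edgeR adjusted p-values of at most 1.61e-13.

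Because most members moved together after LPS, the promoter windows given for 7 of the 10 members (Cd80, Cd274, Pdcd1lg2, Icosl, Lgals9, Havcr2 and Slamf7) were searched for the letters of motifs bound by LPS-activated factors. The windows are from RefSeq on GRCm38.p6 and reach from 250 bases before to 50 after the start that RefSeq gives for a gene. For Cd80 and Slamf7 that start lies 3372 and 4036 bases downstream of the gene start printed here, so these windows are inside the gene as annotated, and for the 5 others it lies between -17 and 66 bases downstream. The letters searched for NF-kB were GGGA and TTCC separated by any 2 bases, and they were found in none of the 7 windows and in 1.47% of all 32851 windows. The letters of an interferon-stimulated response element, GAAA and GAAA separated by any 2 bases, were found in 1 member window and in 3.44% of all, and TTCNNNGAA, for STAT factors, in 0 and in 8.3% of all. Both strands were searched. A match in such a window is a description of the sequence and not a site. The member with the match was Lgals9, on the antisense strand from 55 bases before the start, with another match beginning 16 bases after it. Shown are the 220 bases from 250 to 31 bases before the start of Lgals9 (chr11:78984955-78985174, minus strand), with the match in capitals. Beside them is the same stretch of Cd274 (chr19:29367188-29367407, plus strand), in which these letters do not occur. Cd274 was the member with the largest rise among those with a window.
Lgals9: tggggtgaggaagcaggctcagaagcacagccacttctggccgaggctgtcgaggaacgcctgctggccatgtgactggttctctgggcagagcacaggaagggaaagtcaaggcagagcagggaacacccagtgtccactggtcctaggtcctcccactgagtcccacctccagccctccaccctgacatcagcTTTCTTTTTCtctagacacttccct
Cd274: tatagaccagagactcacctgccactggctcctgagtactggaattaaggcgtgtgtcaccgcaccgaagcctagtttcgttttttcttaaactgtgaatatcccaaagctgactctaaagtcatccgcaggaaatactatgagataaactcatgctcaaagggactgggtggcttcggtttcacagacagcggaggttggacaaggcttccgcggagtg

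Havcr2, the gene of TIM-3 (chromosome 11, 46454935 to 46481255, plus strand), is expressed by myeloid cells as well as by exhausted T cells and was the member that fell. Its levels were 33.4, 30.5 and 23.6 TPM in untreated WT, 34.1, 26.9 and 33.1 in GILZ KO, and 33.4, 30.2 and 25.4 in GILZ TG. After LPS they were 10.7, 10.1 and 11.6 TPM in WT, 11.3, 9.25 and 9.24 in GILZ KO, and 12.5, 15.4 and 12.7 in GILZ TG. Every LPS-treated library was below every untreated library, and after LPS the GILZ TG libraries were above all others. The log2 fold change was -0.79 ± 0.12 in WT, -1.02 ± 0.12 in GILZ KO and -0.51 ± 0.12 in GILZ TG on the TMM scale, with edgeR adjusted p-values of 1.24e-05, 1.05e-06 and 7.88e-04. On the log2(TPM + 1) scale it was -1.34, -1.56 and -1.08.

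Slamf7, a self-binding receptor of the SLAM family on many leukocytes (chromosome 1, 171632403 to 171653035, minus strand), was at 22.0, 17.1 and 15.2 TPM in untreated WT and between 17.5 and 23.6 in the other untreated libraries. After LPS it was at 390, 306 and 275 TPM in WT, at 320, 343 and 331 in GILZ KO, and at 323, 337 and 357 in GILZ TG. The genotypes overlapped in each treatment and the treatments did not. The log2 fold change was 4.80 ± 0.15, 4.69 ± 0.15 and 4.72 ± 0.15 in WT, GILZ KO and GILZ TG, with edgeR adjusted p-values of at most 3.74e-14.

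**Figure D2:**
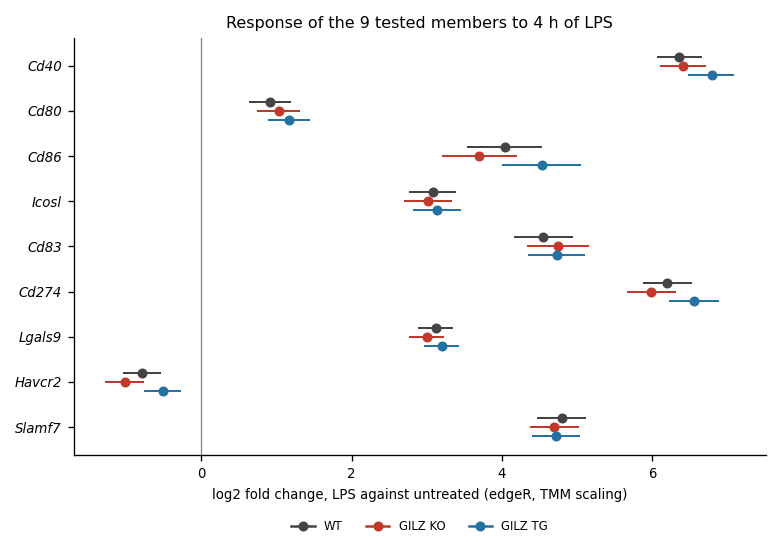
Log2 fold change of the 9 tested members in LPS-treated against untreated BMMs of WT, GILZ KO and GILZ TG (points, edgeR with TMM scaling) with 95% confidence intervals (lines). All points passed an adjusted p of 0.05. Values run from -1.02 for Havcr2 in GILZ KO to 6.79 for Cd40 in GILZ TG, and each gene has the same sign in the 3 genotypes.

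Between GILZ KO and WT no member passed the threshold. These genotypes also differ at Lyz2, as given above, and how many Cre alleles each carried is not given in the sources used here, so the loss of GILZ and the Lyz2 difference cannot be told apart. In untreated BMMs 0 of 9 members passed the test in GILZ KO against WT, compared with 0.0951% of all 12621 genes tested, and 0 of 9 had an unadjusted p below 0.05, compared with 9.6% of all genes. The groups of Icosl and Lgals9 did not overlap, 2 of 9 members, compared with 17.2% of all genes. After LPS 0 of 9 members passed, with 0.0822% of all 12164 genes called and again 0 of 9 members below an unadjusted p of 0.05, compared with 9.63% of all genes. Tsc22d3 itself was at log2 -2.74 in GILZ KO against WT without treatment and passed. With LPS, which lowered it in WT by log2 -1.10, Tsc22d3 was at log2 -0.69 and did not pass. The TPM values of Cd83, Cd86 and Havcr2 in WT and GILZ KO overlapped in each treatment. Without treatment the intervals of Cd83 and Cd86 were wide, from -0.86 to 0.24 and from -0.21 to 0.87 on the log2 scale. That of Havcr2 was narrower, from -0.21 to 0.35. After LPS 0 of 9 members were without overlap between GILZ KO and WT, compared with 16.3% of all genes. With DESeq2, too, 0 members were called in either treatment.

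GILZ TG against WT gave no member past the threshold either. Without treatment 0 of 9 were called, compared with 0.642% of all genes, and 2 had an unadjusted p below 0.05, as had 14.1% of all genes. These were Cd80, at log2 -0.25 ± 0.08 (edgeR adjusted p = 0.201), and Cd274, at log2 -0.40 ± 0.13 (edgeR adjusted p = 0.198). Without GILZ TG replicates 1 and 2 they were at log2 -0.23 (adjusted p = 0.603) and -0.51 (0.517). The groups of 2 members, Cd80 and Lgals9, did not overlap, compared with 14.9% of all genes. After LPS 0 of 9 were called, compared with 0.46% of all genes, and 2 had an unadjusted p below 0.05, as had 15.2% of all genes. Cd83 was 1.49-fold higher in GILZ TG, with a log2 fold change of 0.58 ± 0.12 and an edgeR adjusted p of 0.0672. The groups of Cd83 and Havcr2, 2 of 9 members, did not overlap, compared with 15.2% of all genes. For Cd83, DESeq2 gave an adjusted p of 0.00141. With each library left out in turn its edgeR adjusted p lay between 0.0229, without GILZ TG replicate 3, and 0.232, and without GILZ TG replicates 1 and 2 Cd83 was at log2 0.59 (adjusted p = 0.354). Havcr2 was at log2 0.30 ± 0.09 with an edgeR adjusted p of 0.182, and at 0.23 (0.732) without GILZ TG replicates 1 and 2.

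The comparison of GILZ KO with GILZ TG, the lowest against the highest Tsc22d3, gave the differences that passed. It shares its libraries with the comparisons against WT, so the results are not independent of those. In untreated BMMs 1 of 9 members was called, compared with 4.94% of all genes and with 2.77% of them higher in GILZ KO. Cd274 was 1.51-fold higher in GILZ KO (log2 0.60 ± 0.13, edgeR adjusted p = 0.035). The groups of 4 members did not overlap, compared with 28.7% of all genes. The members with an unadjusted p below 0.05 that did not pass were Cd80 at log2 0.29 ± 0.08, Lgals9 at 0.33 ± 0.10, Cd86 at 0.68 ± 0.25 and Cd83 at -0.69 ± 0.25, with edgeR adjusted p-values from 0.068 to 0.129. An unadjusted p below 0.05 was found for 5 members in all and for 24.6% of all genes. The Cd274 call was lost without any single one of GILZ KO replicates 1, 2 and 3 and GILZ TG replicates 1 and 2 (adjusted p from 0.0649 to 0.142), with log2 values from 0.51 to 0.66. Without GILZ TG replicate 3, 4 members passed, with Cd86 at log2 0.99 (adjusted p = 0.0192), Cd83 at -0.86 (0.0488) and Lgals9 at 0.40 (0.0434) beside Cd274. Without the GILZ TG libraries high in stromal and neutrophil genes 0 members passed, and Cd274 was at log2 0.70 with an adjusted p of 0.165. In the same fit Cd80 was at log2 0.27 (adjusted p = 0.287), Cd86 at 0.20 (0.729), Cd83 at -0.28 (0.659) and Lgals9 at 0.21 (0.29). With limma on log2(TPM + 1) the Cd274 difference had an adjusted p of 0.0805.

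After LPS 2 of 9 members were called in GILZ KO against GILZ TG, compared with 2.6% of all genes, and both were lower in GILZ KO, as were 1.38% of all genes. Cd83 differed by log2 -0.65 ± 0.12 (edgeR adjusted p = 0.0199) and was thus 1.57-fold higher in GILZ TG. Havcr2 differed by log2 -0.42 ± 0.10 (edgeR adjusted p = 0.0476) and was 1.34-fold higher in GILZ TG. Cd40 was at log2 -0.22 ± 0.08 and did not pass, with an edgeR adjusted p of 0.179. These 3 members had an unadjusted p below 0.05, as had 19.1% of all genes. The groups of these 3 members did not overlap, which was so for 20.6% of all genes. Both calls were lost when single libraries were left out. Cd83 was lost without GILZ KO replicate 1 or 3 or GILZ TG replicate 1 or 2 (adjusted p from 0.0538 to 0.0905), and Havcr2 without any one of GILZ KO replicates 1, 2 and 3 and GILZ TG replicates 1 and 2 (adjusted p from 0.0905 to 0.175). Without the GILZ TG libraries high in stromal and neutrophil genes Cd83 was at log2 -0.68 (adjusted p = 0.166), Havcr2 at -0.36 (0.353) and Cd40 at -0.23 (0.498). Havcr2 was also lost with limma on log2(TPM + 1) (adjusted p = 0.131), with only the 6 libraries compared (0.0756) and with all 18 libraries fitted together (0.0502). The part of the stromal, neutrophil and B-cell genes in these differences was not tested.

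**Figure D3:**
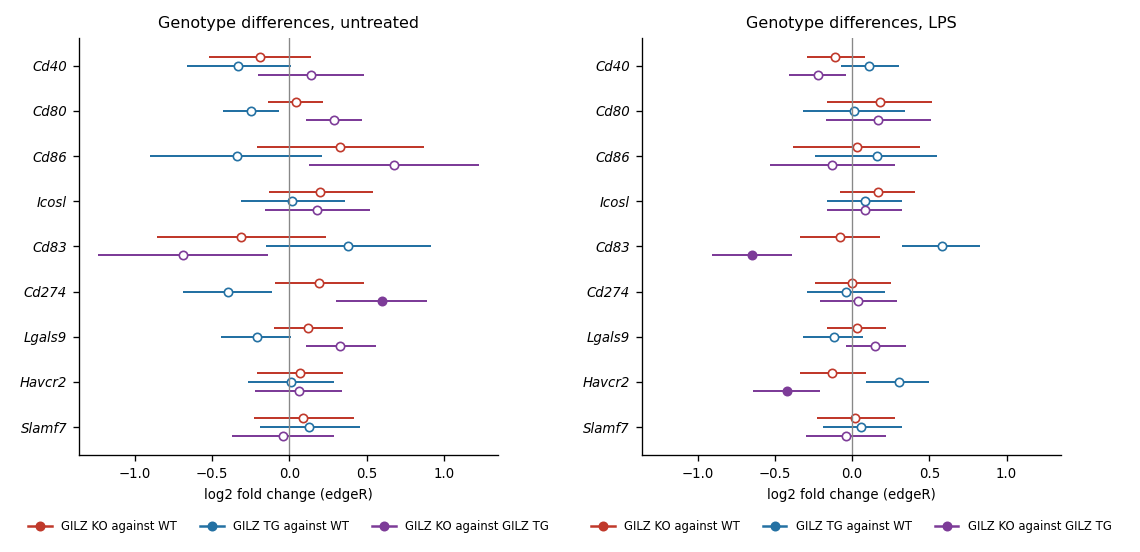
Log2 differences between genotypes of the 9 tested members in untreated (left) and LPS-treated BMMs (right), with 95% confidence intervals (lines). Filled points passed an edgeR adjusted p of 0.05, which were Cd274 at 0.60 without treatment and Cd83 at -0.65 and Havcr2 at -0.42 after LPS, each in GILZ KO against GILZ TG.

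Whether the LPS response itself differed between genotypes was tested as an interaction. For 0 of 9 members did the response pass in GILZ KO against WT, in GILZ TG against WT or in GILZ KO against GILZ TG, compared with 0.0152%, 0.00759% and 0.121% of all genes. An unadjusted p below 0.05 was found for 0, 1 and 4 members, and for 6.36%, 3.09% and 9.92% of all genes. The 4 were Cd274 at log2 -0.58 ± 0.18, Havcr2 at -0.50 ± 0.17, Cd86 at -0.83 ± 0.34 and Cd40 at -0.38 ± 0.17, all with a smaller rise or a larger fall in GILZ KO than in GILZ TG, and with edgeR adjusted p-values from 0.234 to 0.48. In GILZ TG against WT it was Cd40, at 0.43 ± 0.17 with an edgeR adjusted p of 1. DESeq2 called 0 members in each of the 3 interactions. With the replicate number as a block, Cd274 passed in GILZ KO against GILZ TG, at log2 -0.58 with an edgeR adjusted p of 0.0462, and 144 instead of 16 of all genes were called. Untreated and LPS-treated libraries of the same number were compared by their deviations from the group means. These correlated at 0.236 to 0.536 in GILZ TG, at 0.028 to 0.317 in WT and at -0.096 to 0.07 in GILZ KO.

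Other genes of the same pathways were followed as lists. Of the 25 list genes tested with LPS against untreated, 22 passed in WT, 21 in GILZ KO and 20 in GILZ TG. Of all genes tested, 68.6%, 68.5% and 68.7% passed, with 33.2% to 33.6% higher and 35.1% to 35.4% lower. Among other inhibitory ligands, 6 of 8 tested genes were higher after LPS and 0 were lower in each genotype. Fgl2, a fibrinogen-like ligand of inhibitory Fc receptors, rose from 0.98 to 2.45 TPM without treatment to 52.3 to 92.4 TPM, by log2 5.99 in WT, 5.53 in GILZ KO and 6.81 in GILZ TG. Of the other B7 and butyrophilin genes 2 of 9 could be tested, and both were lower in WT and GILZ KO and 1 in GILZ TG. Vsir, the gene of the inhibitory B7 relative VISTA, fell from 47.5 to 62.0 TPM to 15.8 to 21.0 TPM, by log2 values of -1.26, -1.20 and -1.09.

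Among the costimulatory ligands of the TNF superfamily 5 of 6 tested genes were higher and 1 was lower in each genotype. Tnfsf15, the gene of the T-cell costimulator TL1A, was at most at 0.09 TPM without treatment and at 9.27 to 21.3 TPM after LPS. Tnfsf18, the ligand of GITR, was listed at 0 in 7 of 9 untreated libraries and was at 0.56 to 1.49 TPM after LPS. Tnfsf14, the gene of LIGHT, fell from 13.5 to 17.9 TPM to 1.38 to 2.47 TPM, by log2 -2.35 in WT, -2.77 in GILZ KO and -2.30 in GILZ TG.

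In the SLAM family and its adaptors, 6 of 7 tested genes were higher and 1 was lower in WT, and 5 and 1 in GILZ KO and GILZ TG. Slamf1 had at most 2 reads in any untreated library and was at 0.47 to 1.39 TPM after LPS, while Slamf9 rose from 15.6 to 27.5 TPM to 101 to 146 TPM. Cd84 fell from 251 to 318 TPM to 148 to 189 TPM. Its log2 values were -0.25, -0.28 and -0.29 from the counts, and -0.74, -0.82 and -0.77 on the log2(TPM + 1) scale. On the log2(TPM + 1) scale Cd244a, called higher in WT from the counts, was at -0.12 and did not pass. Of 10 receptors on the T-cell side 2 could be tested, and Cd28, the receptor of CD80 and CD86, was lower after LPS, at 3.04 to 5.00 TPM compared with 8.35 to 18.3 without treatment (log2 -1.14, -1.14 and -1.10). All Fgl2, Vsir, Tnfsf14, Slamf9, Cd84 and Cd28 values here passed in all 3 genotypes, with edgeR adjusted p-values of at most 0.005.

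A genotype difference past the threshold was found for 3 genes of these lists, 2 of the 21 tested without treatment in GILZ KO against GILZ TG (4.94% of all genes), 1 of 24 after LPS in GILZ TG against WT (0.46%) and 2 of 24 after LPS in GILZ KO against GILZ TG (2.6%). Timd4 encodes TIM-4, a phosphatidylserine receptor of resident macrophages that also binds TIM-1 on T cells. It was listed at 0 in the 6 untreated WT and GILZ KO libraries and at 0.12, 0.15 and 0.31 TPM in untreated GILZ TG. After LPS it was at 0.41, 0.18 and 0.55 TPM in WT, at 0.23, 0.53 and 0.43 in GILZ KO, and at 6.35, 8.45 and 9.52 in GILZ TG. The GILZ TG libraries stood far above all others after LPS, and replicate 3 was the highest. In that library the summed markers were at 14.3 TPM for stromal, 84.3 for neutrophil-lineage and 26.3 for B-cell genes. The part of these genes in the Timd4 difference was not tested. The rise of Timd4 with LPS passed in all 3 genotypes. Its mean log2 fold change of 6.57 over them rests on untreated libraries with 0 to 9 reads. On the log2(TPM + 1) scale the rise was 0.46 in WT, 0.48 in GILZ KO and 2.92 in GILZ TG. Of the 25 list genes tested, 0 passed in each of the 3 interactions, a test that for Timd4 is limited by these few untreated reads. After LPS Timd4 was higher in GILZ TG than in WT by log2 4.37 ± 0.31 (edgeR adjusted p = 6.48e-05), and the difference of GILZ KO from GILZ TG was log2 -4.42 ± 0.33 (adjusted p = 1.57e-04).

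The 2 others were SLAM family genes. Slamf8, a regulator of phagocyte oxidative activity, was at 3.16, 3.73 and 3.41 TPM in untreated GILZ KO, at 4.05, 4.54 and 3.99 in WT and at 5.29, 6.88 and 5.33 in GILZ TG. The order was the same after LPS, with 16.9, 20.4 and 23.5 TPM in GILZ KO, 24.3, 22.0 and 23.4 in WT and 27.1, 29.8 and 27.9 in GILZ TG. The GILZ TG libraries were above both other genotypes in each treatment. GILZ KO against GILZ TG gave log2 -0.80 ± 0.14 without treatment (edgeR adjusted p = 0.0181) and -0.49 ± 0.11 after LPS (adjusted p = 0.0498). Ly9, a self-binding SLAM receptor, differed the other way, with 135, 125 and 122 TPM in untreated GILZ KO and 104, 91.8 and 104 in GILZ TG (log2 0.33 ± 0.06, edgeR adjusted p = 0.0236), and WT at 110 to 127, overlapping GILZ KO only. Slamf8 without treatment was lost without GILZ KO replicate 1, 2 or 3 or GILZ TG replicate 2 (adjusted p from 0.0521 to 0.0846), Slamf8 after LPS without GILZ KO replicate 1 or 2 or GILZ TG replicate 1 or 2 (0.124 to 0.156), and Ly9 without GILZ KO replicate 1, 2 or 3 or GILZ TG replicate 1 or 2 (0.058 to 0.107). Without GILZ TG replicates 1 and 2, Slamf8 was at log2 -0.68 without treatment (adjusted p = 0.146) and at -0.51 after LPS (0.318), and Ly9 at 0.25 (0.189). Slamf8 after LPS was also lost with limma on log2(TPM + 1) (adjusted p = 0.0693), with the size factors of DESeq2 (0.0522), with a replicate block (0.0603) and with only the 6 libraries compared (0.0778). Timd4 passed in every one of these fits with a library left out, and also without GILZ TG replicates 1 and 2 after LPS, at log2 4.64 against WT (adjusted p = 6.39e-04) and at -4.68 in GILZ KO against GILZ TG (0.00165).

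**Figure D4:**
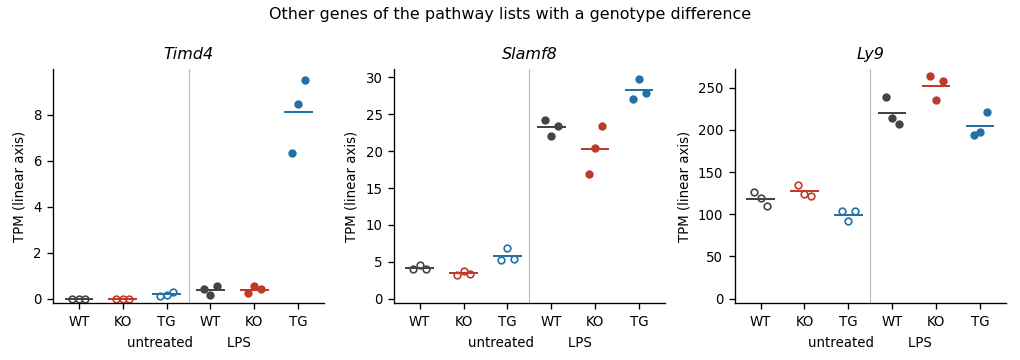
Level of Timd4, Slamf8 and Ly9 in TPM in each library (points, open for untreated and filled for LPS) with the group mean (line), on linear axes, by genotype. Timd4 is at 6.35 to 9.52 TPM in LPS-treated GILZ TG and at most 0.55 elsewhere.

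The genes whose pattern over the 18 libraries was closest to each member were found as the smallest root mean square difference of log2(TPM + 1), centred by gene, among 13168 genes. Since treatment dominates the pattern, this mainly describes the size of the LPS change. The closest to Cd40 were Socs1 and Ifi208, with differences of 0.15 and 0.178. Those closest to Cd274 were Ifih1 and Ifi211, at 0.196 and 0.201, the former encoding the RNA sensor MDA5. Cd83 was closest to the interferon regulatory factor gene Irf1 and to the phosphatase gene Dusp2, at 0.206 and 0.233, and Slamf7 to Gm16685 and Oasl2, at 0.141 and 0.144. For Lgals9 they were Trim12c and Mlkl at 0.105 and 0.116, for Icosl Mapkapk2 and Lcp2 at 0.134 and 0.147, and for Cd86 Arhgef3 and Ms4a6c at 0.229 and 0.243. Cd80 was closest to Slc7a8 and Actr2, both at 0.123, and Havcr2 to Hdac6 and Pgm2l1, at 0.098 and 0.106.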

How the data were processed

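RNA of BMMs of 3 genotypes, untreated or LPS-treated, was sequenced as directional poly(A) libraries with single reads of 75 nt (18 libraries, 3 per group). The authors mapped reads to GRCm38 with the grape-nf pipeline and ran, per the labels, FastQC 0.11.2 and DESeq2 1.40.2. Each deposited library file gives the expected count of each gene, an estimate in RSEM's output format that is not normalized, and its TPM, scaled by the authors for length and total. The posterior SD of the count in these deposited files was 0 for all 10 members. The 9 deposited comparison tables hold fold changes and p-values of the authors, which were not used. Symbols were read from 1 of these tables and matched 37570 of 38887 identifiers.

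Members and lists were chosen with earlier results of these data known. Expected counts were rounded, filtered with filterByExpr by group, TMM-scaled and compared in edgeR 4.0.16 (R 4.3.3) by its quasi-likelihood test, with Benjamini-Hochberg adjustment over all genes tested. LPS effects and interactions were fitted over all 18 libraries, genotype differences over the 9 libraries of a treatment, with no replicate block. Alternatives were DESeq2 1.42.0, limma 3.58.1 on log2(TPM + 1) or log2(TPM + 0.1), other size factors, other filters, other sets of libraries and a replicate block. Untreated and LPS libraries of GILZ TG with the same number deviated together (correlations of 0.236 to 0.536 in 3 pairs), and blocking changed no LPS call there. The count test was tested on simulated data. Members were named in full, other genes of the lists when past the threshold in a genotype comparison or, after LPS, as the 2 largest rises and falls per list that passed in all genotypes. Depth, 14583055 to 38557029 reads, was lowest in LPS-treated GILZ KO replicate 2.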

Additional observations from a re-analysis of the deposited data

How the results depend on the processing

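The 94 results were recomputed under the alternatives that apply to each, 13 to 20 of them. Of 1406 values 1322 stayed on the same side of the threshold or within 1.5 times of the count, and 0 turned direction. In genotype and interaction comparisons only members with an unadjusted p below 0.05 were followed singly. List genes were followed only where named above. Differences near 0 were thus left out, so the 0 that turned direction was partly fixed by this choice. In the 3 LPS comparisons the counts of members called stayed within 1.5 times and leaving out a library always left 9. The numbers of members called in the genotype comparisons were small and moved. In untreated GILZ KO against GILZ TG the count of 1 was 2 with DESeq2, 2 without a filter on low counts, 0 with limma on log2(TPM + 1) and on log2(TPM + 0.1), and 0 without both GILZ TG libraries high in stromal and neutrophil genes, an alternative chosen after seeing the data. Leaving out a single library gave 0 to 4. In GILZ TG against WT after LPS the count of 0 was 1 with DESeq2 and 1 without a filter, and 0 to 1 with a library left out. In GILZ KO against GILZ TG after LPS the count of 2 was 1 with limma on either TPM scale, 1 with only the 6 libraries compared, 1 with all 18 libraries in a single fit, 0 without both of those GILZ TG libraries, and 0 to 2 with a library left out. The cause of these moves was not tested.

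With a replicate block the count was 2 for GILZ KO against GILZ TG without treatment, where Lgals9 was added (adjusted p = 0.042), 1 in the same comparison after LPS, where Havcr2 was lost (adjusted p = 0.0853), and 1 in the interaction of GILZ KO and GILZ TG, where Cd274 reached an adjusted p of 0.0462. Over libraries of different genotypes with equal numbers, 4 of 18 correlations were over 0.1 (-0.123 to 0.275). All 4 were between WT and GILZ TG, for replicates 1 and 3 (0.275 and 0.185 without treatment, 0.149 and 0.139 after LPS). Across treatments the correlations were 0.317, 0.028 and 0.101 in WT and -0.096, 0.07 and 0.067 in GILZ KO. Whether libraries with equal numbers share a preparation is not given in the sources used here and was not tested. In GILZ TG the block joins untreated and LPS-treated libraries that deviated together, which bears on the interaction. Of 6 libraries, 4 correlated best with their own number in GILZ TG and WT of each treatment. In GILZ KO and WT, and in GILZ KO and GILZ TG, 0 did. Across treatments 3 of 6 did so in WT, 4 in GILZ KO and 5 in GILZ TG.

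The number of all genes called also moved. Over all alternatives, libraries left out included, it was 12 and 5 to 79 in GILZ KO against WT without treatment, 81 and 16 to 665 in GILZ TG against WT, and 623 and 34 to 1306 in GILZ KO against GILZ TG. After LPS it was 10 and 4 to 100, 56 and 15 to 1067, and 316 and 24 to 1403. For the interactions it was 2 and 1 to 20, 1 and 1 to 8, and 16 and 0 to 150. The highest counts of GILZ TG against WT and of GILZ KO against GILZ TG in each treatment were those without GILZ TG replicate 3. With at most 6 reads a library, Pdcd1lg2 did not pass the filter on low counts and was not tested with it.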
